A study of Homo sapiens with 16 samples.

Results

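The comparison described here set 2 LSD1 maps from a cell line expressing HOTAIR without its LSD1-interacting part (Epi-HOT-dL) against 2 from a line expressing full-length HOTAIR (Epi-HOT). ChIP-seq, which sequences the DNA that an antibody pulls down with its protein (the IP), was done against LSD1 in HEK-based lines, HEK being human embryonic kidney cells. Each map is a list of islands, the stretches that the authors' caller marked as enriched. Islands of the 4 lists that shared at least 1 bp were merged into regions on the 22 autosomes. Regions that both Epi-HOT-dL libraries held and neither Epi-HOT library did are called gained here, those with the reverse lost, and those with an island in all 4 kept. Of 28565 regions, 3305 were gained, 75 were lost and 56 were kept. These 4 libraries belong to a series of 16, with 8 IP and 8 Input libraries from 4 lines, and the IP lists of the control line Epi-CTR and of Epi-HOT-dP, whose HOTAIR lacks the part that binds PRC2, were looked up at the same regions. The labels give only the names of the lines, with "<delta>" where -d is written here. What each HOTAIR form lacks is background knowledge of the study, and the labels do not say whether a line was made from a single clone. Each HOTAIR form was measured in 1 line, so the form and the line cannot be told apart.

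LSD1 (KDM1A) removes methyl groups from lysine 4 of histone H3 when that residue carries few of them, and works mostly within repressor complexes such as CoREST and NuRD. HOTAIR is a long non-coding RNA transcribed from the HOXC cluster. It is known as a scaffold that can hold PRC2, which methylates lysine 27 of histone H3, through one end and LSD1 through the other, and high HOTAIR is known to accompany the shift of epithelial cells to a mesenchymal state. A HOTAIR form without its LSD1-interacting part asks where LSD1 lies when this RNA cannot hold it.

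On the autosomes the Epi-HOT-dL lists held 16740 and 15681 islands in replicates 1 and 2, and the Epi-HOT lists 6504 and 1776. Both Epi-HOT-dL lists were thus longer than both Epi-HOT lists, at 16210.5 ± 749 islands (SD, n = 2) against 4140 ± 3343. The geometric mean was 4.77 times higher in Epi-HOT-dL (two-sided exact permutation p = 0.33, the smallest that 2 libraries against 2 allow). Without Epi-HOT replicate 2 it was 2.49 times higher, and without Epi-HOT replicate 1 it was 9.12 times higher. The covered length overlapped between the lines, with 77.2 and 202 Mb in Epi-HOT-dL against 83.5 and 15.6 Mb in Epi-HOT (3.46 times, exact permutation p = 0.667, or 1.5 times without Epi-HOT replicate 2). The median island width was 5.7 ± 2.69 kb (SD, n = 2) against 7.5 ± 0.707 kb, and here too the lines overlapped, with 3.8 and 7.6 kb against 7 and 8 kb (exact permutation p = 0.667). No reads are listed, so the depth of each library is unknown, and a longer list cannot be told apart from a deeper or better enriched library.

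Epi-HOT replicate 2 stood apart from the other 3 libraries. Only 0.394% of its islands lay on chromosome 19, against 5.44% to 6.37% in the other 3, and 9.35% lay on chromosome 13, against 1.99% to 2.43%. Epi-HOT-dP replicate 1, outside this comparison, had the same features, with 0.359% and 32.0%. Of the islands of Epi-HOT replicate 2, 12.3% met an island of Epi-HOT replicate 1, and 3.52% of those of replicate 1 met one of replicate 2. The main counts and shares that rest on Epi-HOT replicate 2 are therefore also given without it.

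Most regions were seen once. An island of a single library made up 21391 regions (74.9%), and 5545 were held by 2 libraries, 1573 by 3 and 56 by all 4. Gained regions were 11.6% of all regions, lost regions 0.263% and kept regions 0.196%. The largest classes were Epi-HOT-dL replicate 1 alone, with 8889 regions, and Epi-HOT-dL replicate 2 alone, with 8526. Epi-HOT replicate 1 alone held 2707 and Epi-HOT replicate 2 alone 1269. A further 1442 regions were held by both Epi-HOT-dL libraries and Epi-HOT replicate 1 but not replicate 2, and 42 by the same pair and Epi-HOT replicate 2 but not replicate 1.

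**Figure D1:**
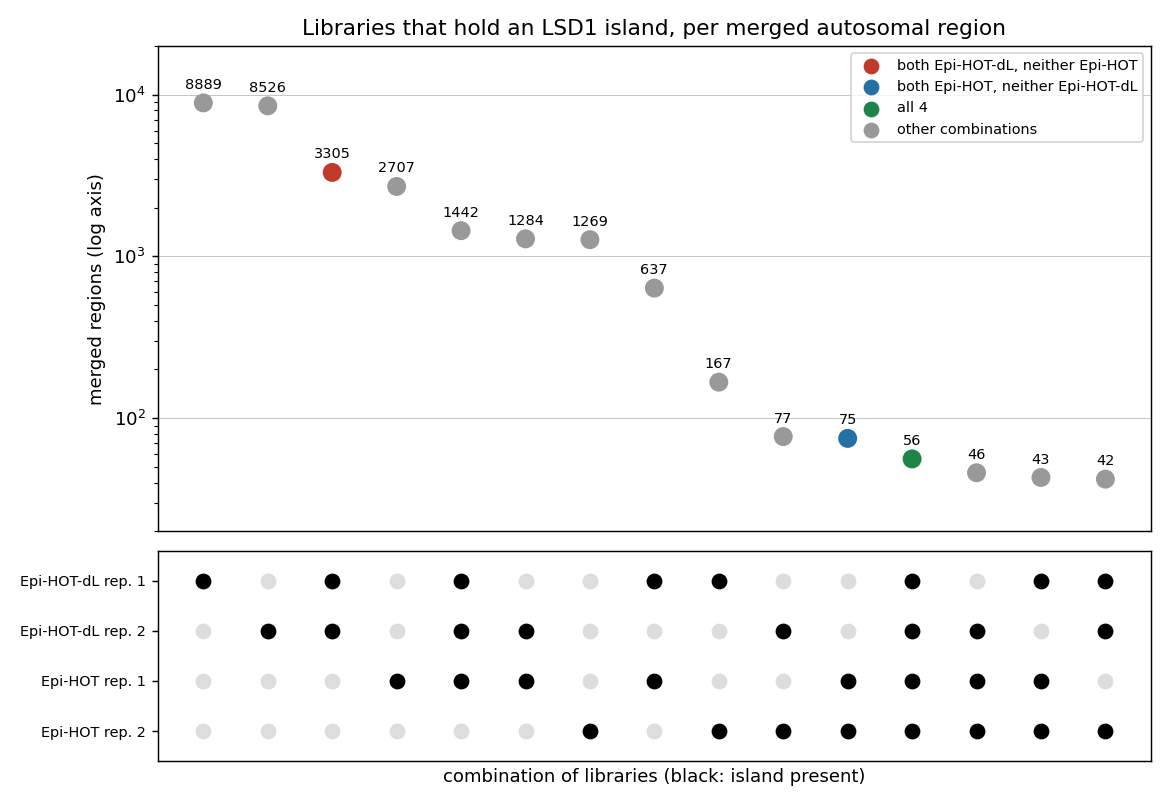
Number of merged autosomal regions (log axis) for each combination of the 4 libraries that hold an island there; black dots mark the libraries with an island. The 3305 gained regions are the largest class held by more than 1 library, and the 75 lost and 56 kept regions are near the smallest.

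Without Epi-HOT replicate 2, regions held by both Epi-HOT-dL libraries and not by Epi-HOT replicate 1 numbered 3341, regions of Epi-HOT replicate 1 without an island in either Epi-HOT-dL library 2794, and regions held by all 3 libraries 1495. With a single Epi-HOT library left, a loss asks for 1 island where a gain still asks for 2, so these numbers are not alike. The gained count moved in the same way when an Epi-HOT-dL library was left out, to 11996 without replicate 1 and 13333 without replicate 2. The rule for a line with 1 library left is looser by design, so these rises do not show what the main counts rest on. With all 4 libraries a loss asked of both Epi-HOT libraries had only 220 regions to draw on, and a gain had 4845. When all 4 lists were shortened by FDR (the false discovery rate that the authors' caller gave each island) to the 1776 best islands, 109 regions were gained, 73 lost and 5 kept.

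Lists of equal length were also compared island by island, leaving out the 2 short lists (Epi-HOT-dP replicate 1, Epi-HOT replicate 2). With lists of 6504 islands each, the length of Epi-HOT replicate 1, 21.5% of the islands of Epi-HOT-dL replicate 2 met an island of Epi-HOT-dL replicate 1 and 32.1% met one of Epi-HOT replicate 1. Islands of Epi-HOT-dL replicate 1 went the other way, with 25.6% meeting Epi-HOT-dL replicate 2 and 20.2% meeting Epi-HOT replicate 1. Of the islands of Epi-HOT replicate 1, 16.3% and 28.1% met Epi-HOT-dL replicates 1 and 2, against 21.9% and 18.4% for Epi-CTR replicates 1 and 2. Widths differ between these shortened lists, which covered 29.2 Mb in Epi-HOT-dL replicate 1, 120 Mb in Epi-HOT-dL replicate 2 and 83.5 Mb in Epi-HOT replicate 1, and a list that covers more has more bases to be met in.

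Gained regions varied widely in width. Their median was 13.4 kb (middle range 7.4 to 25.6 kb), less than the 28 kb of the 1442 regions that Epi-HOT replicate 1 also held. Of the gained regions 1120 (33.9%) were wider than 20 kb, 208 (6.29%) wider than 50 kb, and 409 (12.4%) at most 5 kb wide. Epi-HOT-dL replicate 2 held the wider islands: those in gained regions were 12 kb wide at the median, against 7.6 kb in its whole list. At the same places the median island of Epi-HOT-dL replicate 1 was 4.2 kb wide, close to the 3.8 kb of its list. A gained region needs islands of both libraries to meet, and a wide island has more bases to be met in. How far this bears on the widths in replicate 2 was not tested. In 553 gained regions several islands of replicate 1, up to 7, lay in a single region, which happened in 112 regions for replicate 2. The islands of replicate 1 in gained regions summed to 20.8 Mb and those of replicate 2 to 61.0 Mb.

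Counted in bases rather than regions, both Epi-HOT-dL libraries shared 35.1 Mb, or 45.5% of the bases of replicate 1 and 17.4% of those of replicate 2. Of these shared bases 20.8 Mb lay in neither Epi-HOT library. Epi-HOT replicate 1 covered 40.5% of the shared bases, a larger part than Epi-CTR replicate 1 (30.6%), Epi-CTR replicate 2 (28.1%) or Epi-HOT-dP replicate 2 (27.2%) did with similar covered lengths of 78.3 to 90.4 Mb. Only 0.534% was covered by Epi-HOT replicate 2, and 0.0973% by replicate 1 of Epi-HOT-dP. Counted in regions the order differed. Of the 4845 regions of both Epi-HOT-dL libraries, 30.9% had an island in Epi-HOT replicate 1. The shares were 59.8% and 47.6% for Epi-CTR replicates 1 and 2 and 37.6% for Epi-HOT-dP replicate 2. Islands wider than 20 kb made up 14.6% of the Epi-HOT replicate 1 list, against 0.287%, 0.893% and 3.14% of those lists. Both Epi-HOT libraries together shared 0.816 Mb, of which 0.442 Mb lay in neither Epi-HOT-dL library, and 0.127 Mb lay in all 4.

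The FDR of gained regions was not uniformly low. In Epi-HOT-dL replicate 1 their islands had a median FDR of 0.0105, above the 0.00797 of the whole list, and 17.3% had an FDR of at most 0.001, against 21.5% of the list. In Epi-HOT-dL replicate 2 the median was 0.00162, below the list's 0.00266, and the share 46.1% against 40.8%. When islands of all lists were held to an FDR of at most 0.001, 499 gained regions were left, and at 1e-05 there were 69.

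Regions held by both Epi-HOT-dL libraries were ordered by the worse of their 2 ranks by FDR and divided into 5 bins of 969. In the first bin, with the lowest FDRs, 54.1% had an island in Epi-HOT replicate 1 and 45.3% were gained. In the last bin 19.4% had an island in Epi-HOT replicate 1 and 79.6% were gained. Gained regions were thus more frequent among the weaker Epi-HOT-dL regions than among the stronger ones. The bins also differed in width, with medians of 33.8 kb in the first and 12.4 kb in the last, and FDR and width were not separated. Islands of Epi-CTR replicate 1 fell off in the same order, from 74.2% to 51.0%, as did those of Epi-CTR replicate 2, from 66.4% to 37.0%, and Epi-HOT-dP replicate 2, from 58.9% to 25.4%. Epi-HOT replicate 2 was at 2.37% in the first bin and 1.86% in the last.

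**Figure D2:**
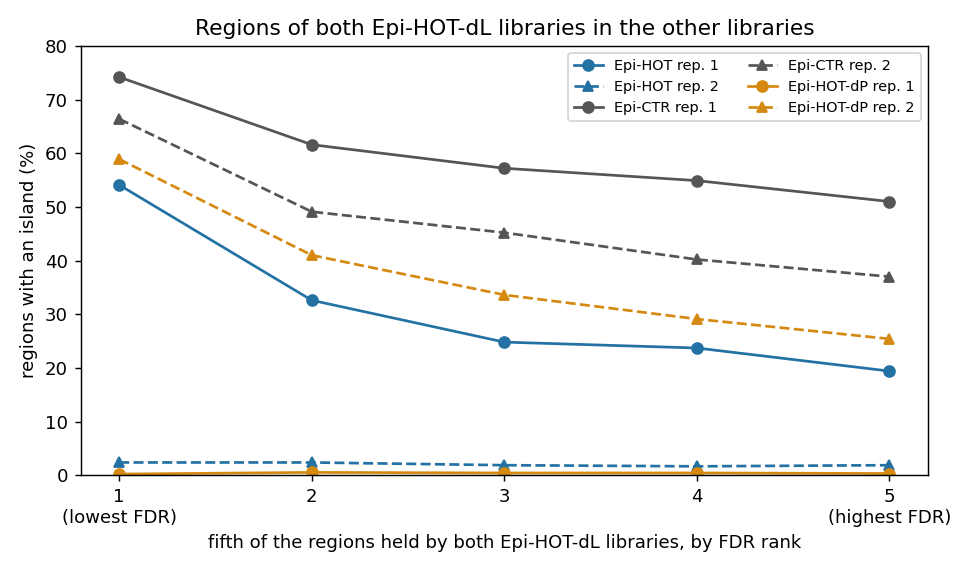
Share of the regions held by both Epi-HOT-dL libraries (percent, 969 regions a bin) that had an island in each of the other 6 libraries, in 5 bins of the worse FDR rank from lowest to highest FDR. Epi-HOT replicate 1 went from 54.1% to 19.4%, below both Epi-CTR libraries in each bin, and 2 libraries, replicate 2 of Epi-HOT and replicate 1 of Epi-HOT-dP, stayed below 3%.

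Above 5 kb, width moved with the same shares. Of the 630 regions of both Epi-HOT-dL libraries that were wider than 50 kb, 66.7% had an island in Epi-HOT replicate 1 and 33.0% were gained. Among the 1011 regions between 5 and 10 kb these shares were 17.0% and 81.9%. The 550 regions of at most 5 kb broke the order, with 25.1% and 74.4%. The widest regions had an island in Epi-CTR replicate 1 in 93.0% of cases and in Epi-HOT-dP replicate 2 in 87.5%. Regions between 5 and 10 kb had 39.8% and 13.2%, and those of at most 5 kb had 56.7% and 9.45%. A wide region has more bases in which to meet another island, and this part of the difference was not tested.

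The strongest gained regions were named by the best of the worse of their FDR ranks in the 2 Epi-HOT-dL libraries. First stood chromosome 11 from 64549001 to 64628200 and second chromosome 19 from 50346801 to 50402600, where a single island of Epi-HOT-dL replicate 2 spanned 3 and 4 islands of replicate 1, respectively. Next was a narrow site of 3.8 kb on chromosome 5 from 153568001 to 153571800. It had FDRs of 7.62e-09 and 2.56e-22 in Epi-HOT-dL replicates 1 and 2 and of 2.17e-19 and 2.74e-09 in the Epi-CTR replicates, with no island in either Epi-HOT-dP library. The nearest island of Epi-HOT replicate 1 was 15 kb away.

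The stretch on chromosome 4 between 2059001 and 2089800 carried islands with FDRs of 1.01e-07 and 1.66e-19 in Epi-HOT-dL replicates 1 and 2, and had an Epi-HOT replicate 1 island 4.8 kb away. The following one, on chromosome 16 from 3066201 to 3101600, had FDRs of 5.17e-07 and 1.80e-19. It lay only 1.4 kb from an island of Epi-HOT replicate 1, so its call rested on a narrow gap. It was also held by both Epi-CTR libraries (1.12e-25 and 2.11e-05) and by Epi-HOT-dP replicate 2 (1.49e-07). By contrast, the 3.4 kb region on chromosome 14 from 88237001 to 88240400 lay 1207 kb from the nearest Epi-HOT replicate 1 island. Its FDRs were 3.37e-09 and 5.73e-17 in Epi-HOT-dL, 1.33e-09 and 0.0425 in Epi-CTR and 2.21e-06 in Epi-HOT-dP replicate 2.

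The next named regions were mostly broad stretches. One of 133 kb, the broadest of the 15, lay on chromosome 16 from 70669201 to 70802600, with 4 islands of Epi-HOT-dL replicate 1 and 2 of replicate 2. On chromosome 12, from 52531001 to 52556400, the FDRs were 5.97e-06 and 2.49e-16. On chromosome 2, from 220329001 to 220389000, they were 6.66e-07 and 2.17e-14, and Epi-CTR replicate 1 had no island there. Another broad stretch, on chromosome 9 from 133786801 to 133841400, had 1.03e-05 and 6.96e-24 and lay 2.6 kb from an island of Epi-HOT replicate 1. The remaining broad ones lay on chromosome 10 between 104398001 and 104432800, on chromosome 19 between 36200601 and 36260000, and on chromosome 1 between 155137801 and 155160800. The last of these had islands of 2.2 and 23 kb in Epi-HOT-dL replicates 1 and 2. Of the 15 named gained regions 9 were held by both Epi-CTR libraries, 10 by Epi-HOT-dP replicate 2 and none by Epi-HOT-dP replicate 1. They were chosen by their FDRs in Epi-HOT-dL and are not typical of all gained regions.

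Of the 15, 2 had no island in any of the 6 other libraries. One lay on chromosome 9 between 108554601 and 108566400 and had FDRs of 1.58e-08 and 1.29e-14 in Epi-HOT-dL. The other lay on chromosome 22 between 49545201 and 49557600 (4.54e-06 and 2.13e-12). The first lay 547 and 546 kb from the nearest islands of Epi-HOT replicates 1 and 2, the second 28.4 kb from one of replicate 1. Next among regions seen in Epi-HOT-dL alone came chromosome 1 from 3502801 to 3537200 (3.39e-05 and 5.77e-15), chromosome 6 from 144328001 to 144330400 (1.87e-06 and 2.36e-10) and chromosome 19 from 34245801 to 34277800 (2.43e-05 and 6.03e-10). The chromosome 6 region was 2.4 kb wide, and its islands of 1.8 and 2 kb in the 2 Epi-HOT-dL libraries were nearly the same size.

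Besides the regions on chromosomes 5, 14 and 6 named above, the strongest gained regions of at most 5 kb lay on chromosome 9 between 109622201 and 109627200 (FDRs 3.83e-05 and 2.23e-10) and on chromosome 14 between 106343601 and 106347600 (1.54e-05 and 2.94e-09). The former was held by both Epi-CTR libraries (4.35e-04 and 1.52e-04) and the latter by neither. The widest gained region, 173 kb on chromosome 10 from 80803801 to 80976600, was a single island of Epi-HOT-dL replicate 2 with an FDR of 1.42e-48. Epi-HOT-dL replicate 1 held 4 islands within it, the best with an FDR of 0.0127. It was also held by Epi-CTR replicates 1 and 2 (6.11e-17 and 3.44e-13) and by Epi-HOT-dP replicate 2 (1.89e-09).

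**Figure D3:**
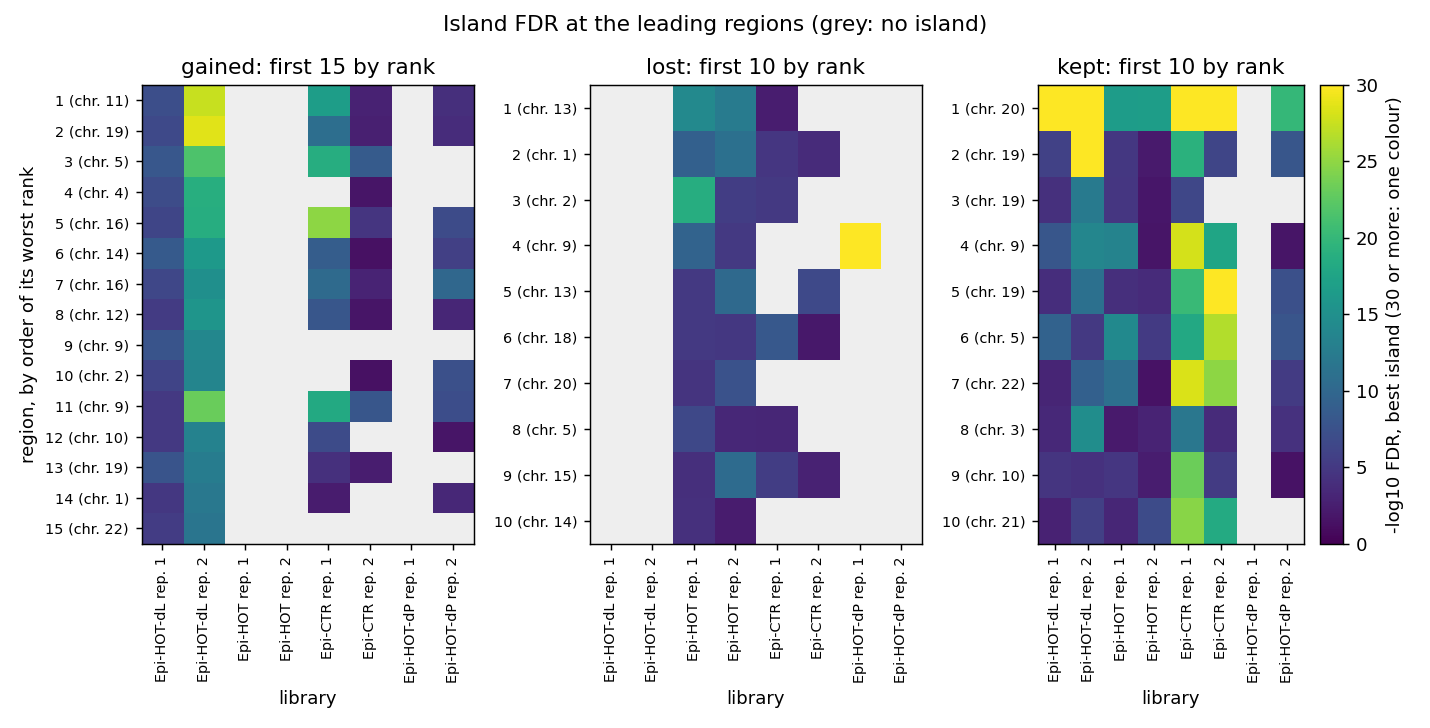
Minus log10 of the FDR of the best island (colour; 30 and above share a colour, grey means no island) in the 8 libraries for the leading 15 gained, 10 lost and 10 kept regions, each numbered by its worst FDR rank. Colours compare regions within a library, not libraries with each other; among the gained regions numbers 9 and 15 are grey in all 6 libraries outside Epi-HOT-dL.

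Gained regions were then looked up in the lines the comparison did not use. Both Epi-CTR libraries held 1001 of the 3305 (30.3%, 95% exact binomial interval 28.7 to 31.9), a single one 1067 (32.3%) and neither 1237 (37.4%, 35.8 to 39.1). Over all 28565 regions both Epi-CTR libraries held 15.8% and neither 59.7%, but most of these regions were seen in a single library. A closer measure is the 1498 regions held by both Epi-HOT-dL libraries and Epi-HOT replicate 1, of which both Epi-CTR libraries held 57.9% (55.3 to 60.4) and neither 19.8% (17.8 to 21.9). The difference between these sets was not tested. The intervals cover counting error over regions only, and the wider 28 kb median of the regions that were held by both Epi-HOT-dL libraries and by Epi-HOT replicate 1 but not replicate 2 moves with the difference. Leaving out Epi-HOT replicate 2 gave 30.6% held by the Epi-CTR pair and 37.1% held by neither of them. Other settings moved these shares further. With all 4 lists at 1776 islands they were 56.9% (47.0 to 66.3) and 19.3%, for 109 gained regions looked up in the whole Epi-CTR lists. The first is near the 57.9% above, but that value is for regions of whole lists. It was not taken at 1776 islands, so the 2 are not alike. Without Epi-HOT-dL replicate 1 they were 15.5% and 58.0%, and without Epi-HOT-dL replicate 2 they were 10.9% and 66.5%.

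By library, gained regions had an island in Epi-CTR replicate 1 in 53.3% of cases, Epi-CTR replicate 2 in 39.5%, Epi-HOT-dP replicate 2 in 32.6% and Epi-HOT-dP replicate 1 in 0.242%. Over all regions the shares were 31.3%, 24.7%, 15.5% and 1.37% in the same order. Only 1 gained region was held by both Epi-HOT-dP libraries, and none was held by all 4 libraries of Epi-CTR and Epi-HOT-dP. Leaving Epi-HOT-dP replicate 1 aside, 540 (16.3%) were held by both Epi-CTR libraries and Epi-HOT-dP replicate 2, against 6.14% of all regions and 37.8% of the 1498 shared with Epi-HOT replicate 1. At the other end, 1048 (31.7%, 30.1 to 33.3) had no island in any of the 4 libraries, against 16.4% (14.5 to 18.3) of the 1498 regions shared with Epi-HOT replicate 1 and 54.4% of all regions.

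**Figure D4:**
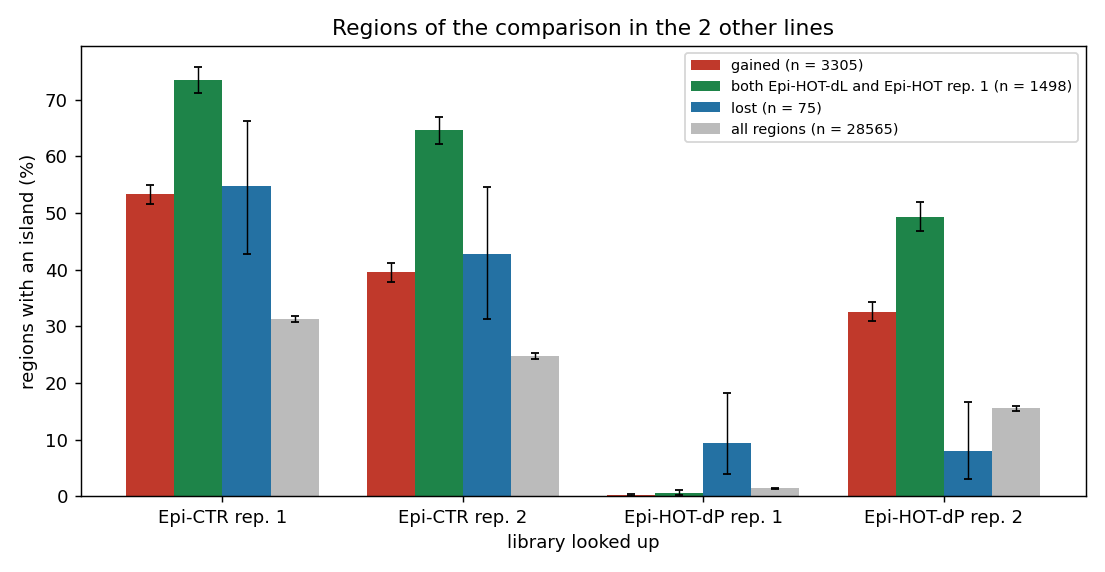
Share of regions (percent) with an island in each library of Epi-CTR and Epi-HOT-dP, for gained regions, regions of both Epi-HOT-dL libraries and Epi-HOT replicate 1, lost regions and all regions; bars give 95% exact binomial intervals over regions. Gained regions lie between all regions and those shared with Epi-HOT replicate 1, for each Epi-CTR library and for replicate 2 of Epi-HOT-dP.

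Gained regions were most frequent on chromosomes 19, 22 and 17, which are known to be rich in genes, followed by chromosome 21 (60 regions, 14.8%). Gene content was not measured here. On chromosome 19 they were 213 of 1072 regions (19.9%), on chromosome 22 131 of 785 (16.7%) and on chromosome 17 245 of 1497 (16.4%), against 11.6% over all autosomes. The lowest shares were on chromosomes 13 (48 regions, 5.85%), 18 (43, 6.67%) and 6 (111, 7.44%). Per Mb this came to 3.62 gained regions on chromosome 19 and 3.84 on chromosome 22, against 0.503 on chromosomes 4 and 13. Across the 22 chromosomes the share of gained regions rose with the number of merged regions per Mb (Pearson's r = 0.767, Spearman's rho = 0.79). The number of gained regions per Mb followed the islands per Mb of Epi-HOT replicate 1 closely (r = 0.962, rho = 0.946), but not those of Epi-HOT replicate 2 (r = -0.475, rho = -0.432). The chromosomes share libraries and gene content, so these values describe the maps only.

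Chromosome 19 was also where Epi-HOT replicate 1 held the largest part of the Epi-HOT-dL regions. Of the 375 regions of both Epi-HOT-dL libraries there, 43.2% had an island in Epi-HOT replicate 1 and 56.8% were gained, the lowest gained share of any autosome by this measure. On chromosome 3 the shares were 22.3% and 75.8%. A high density of gained regions on chromosome 19 therefore went with many shared regions.

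**Figure D5:**
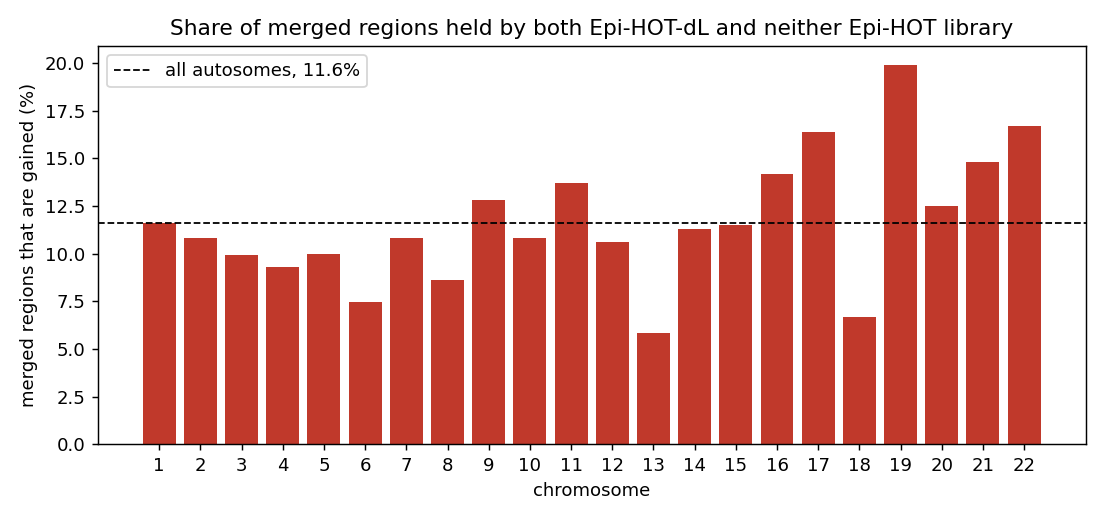
Share of the merged regions of each autosome that were gained (percent); the dashed line is the 11.6% over all autosomes. Chromosomes 19, 22 and 17 have the highest shares and chromosomes 13 and 18 the lowest.

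Many gained regions lay near another. The median distance from a gained region to the next was 63.8 kb, and 1503 (45.5%) lay within 50 kb of another. The same was not measured for all regions or for all those of both Epi-HOT-dL libraries. Whether crowding is particular to gained regions is therefore not known. Of 1145 stretches of 1 Mb with a gained region, 238 held 5 or more, and together these held 1550 gained regions (46.9%). The densest was chromosome 8 from 144000001 to 145000000 with 13. Islands starting there numbered 37 and 40 in Epi-HOT-dL replicates 1 and 2, 11 and 0 in Epi-HOT replicates 1 and 2, and 17 and 14 in Epi-CTR replicates 1 and 2. There were 3 stretches with 12 gained regions each, among them chromosome 6 from 33000001 to 34000000, with 29 and 24 Epi-HOT-dL islands, 4 and 0 Epi-HOT islands, and 33 and 12 Epi-CTR islands.

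Some dense stretches were almost bare in Epi-HOT. Chromosome 3 from 52000001 to 53000000 held 11 gained regions, with 20 and 23 Epi-HOT-dL islands and 0 in both Epi-HOT libraries. Epi-CTR replicates 1 and 2 had 27 and 10 islands there and Epi-HOT-dP replicate 2 had 17. Chromosome 1 from 11000001 to 12000000 also held 11, with 24 and 22 Epi-HOT-dL islands, 1 and 0 Epi-HOT islands, and 16 and 12 Epi-CTR islands. These stretches were picked for their gained regions, so their low Epi-HOT numbers are part of the choice. The lists that the choice did not use held islands in all 4 of the stretches given here, except Epi-HOT-dP replicate 1, which had none.

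The 75 lost regions were narrower, with a median width of 8.6 kb and 3 wider than 20 kb. Each consisted of a single island from each Epi-HOT library, with a median width of 4.2 kb in replicate 1, whose whole list had 7 kb, and 7.6 kb in replicate 2. Chromosome 6 held 10 of them (13.3%), chromosome 1 held 8 and chromosome 13 held 6, while chromosomes 16, 19 and 21 held none. Most of the 10 on chromosome 6 lay in a single stretch between 25363201 and 28196000, for which the share of all regions was not counted. Of all 28565 regions, 1491, 2880 and 821 lay on chromosomes 6, 1 and 13. Every lost region needs an island of Epi-HOT replicate 2. That library had 159, 156 and 166 islands on chromosomes 6, 1 and 13, and 18, 7 and 11 on chromosomes 16, 19 and 21. Of the 6 on chromosome 13, where Epi-HOT replicate 2 had 9.35% of its islands, 2 lay between 90 and 110 Mb. With no more than 75 regions, these numbers are small, and lost regions were 0.263% of all regions.

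The leading lost region was on chromosome 13 between 104958801 and 104968400, within those bounds (FDRs of 6.90e-15 and 3.52e-13 in Epi-HOT replicates 1 and 2). Next were chromosome 1 between 238570001 and 238577800 and chromosome 2 between 181841601 and 181849400. The one on chromosome 9 between 36397201 and 36403400 (2.99e-10 and 9.43e-06) was held by Epi-HOT-dP replicate 1 with 3.08e-31. It lay 12.2 kb from an island of Epi-HOT-dL replicate 1. Further ones were chromosome 13 from 30874601 to 30878400 (1.12e-05 and 5.70e-11), chromosome 18 from 52441001 to 52445200 (1.18e-05 and 1.44e-05) and chromosome 20 from 36684201 to 36697200 (2.74e-05 and 2.93e-08). The last 3 of the 10 were chromosome 5 between 52081201 and 52089600, chromosome 15 between 39408801 and 39431000, and chromosome 14 between 74374201 and 74388400, where the higher FDR of the pair was 5.19e-04, 9.47e-05 and 0.0056.

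Lost regions were also found in Epi-CTR. Both Epi-CTR libraries held 22 of the 75 (29.3%, 19.4 to 41.0), a single one 29 and neither 24 (32.0%, 21.7 to 43.8). These wide intervals contain the 30.3% and 37.4% of gained regions, which does not show that the sets are alike. They cover counting error over regions only, and the sets differ in width. The 220 regions held by both Epi-HOT libraries include the lost ones. Of these 220, both Epi-CTR libraries held 48.2% (41.4 to 55) and neither 19.5% (14.5 to 25.4). This difference was not tested. The strongest lost regions held by both Epi-CTR libraries, besides those on chromosomes 1, 18 and 15 above, were chromosome 13 between 33800001 and 33815200 and chromosome 1 between 209556401 and 209572200. The latter was also held by both Epi-HOT-dP libraries, with FDRs of 6.48e-46 and 0.00532. The widest lost region, 49.4 kb on chromosome 8 from 129394001 to 129443400, was a single wide island of Epi-HOT replicate 2 over a 4.8 kb island of replicate 1. In Epi-HOT-dP replicate 1 an island there had an FDR of 6.35e-284. Epi-HOT-dP replicate 1 held 9.33% of lost regions, close to the 10.2% of all regions with an island of Epi-HOT replicate 2, which every lost region has by its definition, and it held 1.37% of all regions. Counted without Epi-HOT replicate 2, 11.1% of the 2794 lost regions were in both Epi-CTR libraries.

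Looked at from the Epi-HOT side, 26.0% of the 6504 islands of replicate 1 lay in regions of both Epi-HOT-dL libraries, 31.2% in regions of a single one and 42.8% in neither. Among the 1301 of these islands with the lowest FDRs the shares in both and in neither were 39.8% and 31.8%, and among the 1300 with the highest 20.0% and 47.2%. Strong islands of Epi-HOT replicate 1 were thus met more often in Epi-HOT-dL than weak ones. In Epi-HOT replicate 2 the order ran the other way. Regions of both Epi-HOT-dL libraries took in 5.52% of its 1776 islands, while 75.7% met neither, and among the 356 with the lowest FDRs these shares were 1.97% and 85.4%, against 9.30% and 66.2% among the 355 with the highest.

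The 56 kept regions were 12.8 kb wide at the median, and 39 of them (69.6%, 55.9 to 81.2) were held by both Epi-CTR libraries. In 48 some base was covered in all 4 libraries, and in the other 8 the islands met only through a chain. The first by rank was a site of 2 kb on chromosome 20 between 26188601 and 26190600 that had FDRs of 5.65e-161 and 2.12e-176 in Epi-HOT-dL replicates 1 and 2 and of 2.97e-17 and 2.10e-17 in Epi-HOT replicates 1 and 2. Its islands were 1.8 or 2 kb wide in all 4 libraries. It had the lowest FDR of the list in both Epi-HOT-dL libraries and ranked 33 and 103 in Epi-HOT. Its FDRs of 1.39e-187 in Epi-CTR replicate 1 and 9.84e-21 in Epi-HOT-dP replicate 2 were also the lowest of those lists. Epi-CTR replicate 2 had 7.18e-38 there, and Epi-HOT-dP replicate 1 had no island.

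Wide stretches of chromosome 19 followed, from 1500001 to 1627800, from 56588201 to 56645000 and from 4156601 to 4320400. The last, at 164 kb the widest kept region, merged 8 and 4 islands of Epi-HOT-dL replicates 1 and 2 with 2 and 1 of Epi-HOT replicates 1 and 2. On chromosome 9, from 131759801 to 131793600, the FDRs were 9.87e-09 and 1.50e-14 in Epi-HOT-dL and 4.25e-14 and 0.0225 in Epi-HOT. On chromosome 5, from 156988401 to 157011400, they were 3.83e-10 and 1.02e-05 in Epi-HOT-dL and 6.10e-15 and 8.95e-06 in Epi-HOT. The 10 leading kept regions ended with chromosome 22 between 27002401 and 27027600, chromosome 3 between 9982401 and 10004000, chromosome 10 between 32032801 and 32069600, and chromosome 21 between 17934001 and 17938000. Of these 10, 9 were held by both Epi-CTR libraries and 8 by Epi-HOT-dP replicate 2. Of all 56 kept regions, Epi-HOT-dP replicate 2 held only 18 (32.1%).

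Only 5 kept regions had no island in Epi-CTR or Epi-HOT-dP. They were chromosome 2 between 223723001 and 223735000, chromosome 19 between 33679801 and 33720800, chromosome 10 between 33242401 and 33255000, chromosome 6 between 125279401 and 125287400, and chromosome 1 between 93414001 and 93429600. Each had an FDR above 0.01 in at least 1 library. The second combined FDRs of 1.35e-24 in Epi-HOT-dL replicate 2 and 8.07e-09 in Epi-HOT replicate 1 with 0.0187 in Epi-HOT-dL replicate 1 and 0.0410 in Epi-HOT replicate 2.

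The calls were also read against the distance to the other line's islands and against the overlap asked for. An island of either Epi-HOT library lay within 1 kb of 37 gained regions (1.12%) and within 10 kb of 576 (17.4%). The median distance was 56.6 kb to the nearest island of Epi-HOT replicate 1 and 838 kb to that of Epi-HOT replicate 2. Of the 1540 regions of both Epi-HOT-dL libraries that did meet an Epi-HOT island, 12 (0.779%) shared at most 1 kb with it. Single islands of replicate 1 were also counted in place of regions, with 50% reciprocal overlap in place of 1 bp. Of the islands of Epi-HOT-dL replicate 1, 1179 were gained and 7 kept, and of those of Epi-HOT replicate 1, 38 were lost. A smaller overlap with the other line then counted as none, so these are not what was left of the regions above. For lost regions the nearest Epi-HOT-dL island of either library lay within 10 kb in 16 (21.3%), with a median of 33.2 kb.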

How the data were processed

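LSD1 ChIP-seq islands of 4 HEK-based lines were used, 1 list per IP library, 8 lists in all. Bowtie2 2.1.0, SICER 1.1 and the build hg19 are named per the submitters' processing notes, without the step each served. The list names in the labels record 200 bp windows, gaps up to 1000 bp, an FDR of 0.05 and 1 more filtering step that they do not explain. In the files 100% of widths were multiples of the window and the smallest gap within a list was 1200 bp. Each island carries 1 value, its FDR, which is an adjusted p-value that the authors deposited; islands were ranked and filtered by it only inside their own list. Reads are not listed, so depth is unknown and no interval covers it.

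Lines were taken from the labels and replicate numbers from the titles. The series' design text describes the 2 cultures of a line as independent. Coordinates are counted from 1. Islands of the 4 lists sharing 1 bp were merged on autosomes, and Epi-CTR and Epi-HOT-dP lists were looked up at the merged regions with the same overlap. Named regions were the 15 gained, 10 lost and 10 kept with the best of the worst FDR rank over the libraries holding them, 5 each of further kinds (gained in Epi-HOT-dL alone, gained and in both Epi-CTR, gained and at most 5 kb, lost and in both Epi-CTR), and the widest of each class. The classes, lists and rules were chosen with earlier results of these data known. Lists of 6504 islands were compared after the maps had been seen, as were the settings with chromosome 13 or regions near the other line's islands left out and the replicate block. Island numbers, covered lengths and median widths were compared with two-sided exact permutation tests of mean log10 values, and shares carry 95% exact binomial intervals. Genes and sequences were not used here, since the gene tables at hand belong to another build. The counting was tested on simulated lists. Best gained regions held by both Epi-CTR libraries were named in place of those in all 4 other libraries, of which there were 0. Software was matplotlib 3.10.9, scipy 1.17.1, pandas 2.3.3, numpy 2.4.6 and Python 3.11.15.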

Additional observations from a re-analysis of the deposited data

How the results depend on the processing

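Merging islands within 1 kb, adding the X chromosome and leaving out chromosome 13 from 90 to 110 Mb left the numbers of gained, lost and kept regions within 1.5 times of those reported, as did leaving out regions within 10 kb of an island of the other line. An FDR of at most 0.001 gave 499 gained, 28 lost and 5 kept regions, and 1e-05 gave 69, 8 and 1. Lists of 1776 islands each gave 109 gained and 5 kept. Islands of at most 10 kb alone gave 1553 gained and 23 kept. Counting islands of replicate 1 in place of regions, with 50% reciprocal overlap, gave 1179, 38 and 7. Counting 200 bp windows gave 104185, 2210 and 636. Neither unit is a region, so these numbers do not compare directly with the counts of regions. With Epi-HOT replicate 2 left out and lists of 6504 islands, which asks 2 libraries of a gain but only 1 of a loss, 649 were gained, 4248 lost and 636 kept. Leaving out each library in turn, by design a looser rule for the line with 1 library left, gave 3341 to 13333 gained, 118 to 2794 lost and 95 to 1495 kept regions. Of these, 11996 or 13333 were gained without Epi-HOT-dL replicate 1 or 2, and 1353 or 2794 lost without Epi-HOT replicate 1 or 2.

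The share of gained regions in both Epi-CTR libraries was 26.7% at an FDR of at most 0.001, 56.9% with lists of equal length, 20.2% with islands of at most 10 kb, 38.7% with equal lists without Epi-HOT replicate 2, and 10.9% to 37.9% leaving out a library. The share in neither was 44.9% at 1e-05, 19.3%, 49.2% and 28.2% in the latter 3 settings, and 32.7% to 66.5% leaving out a library. The share of lost regions in both was 43.8% with lists of equal length, 15.1% with equal lists without Epi-HOT replicate 2, and 11.1% to 38.1% leaving out a library. The FDR limits also cut the Epi-CTR lists that were looked up, while the equal lengths and the 10 kb limit left them whole. These shares are therefore not alike between settings, and the cause of their shifts was not tested.

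The ratio of island numbers ran from 1.85 to 9.12 and that of covered length from 1.48 to 8.00. The median width was 0.718 times that of Epi-HOT (exact permutation p = 0.667), 1.04 at an FDR of at most 1e-05, 1.02 without Epi-HOT-dL replicate 1 and 0.508 without Epi-HOT-dL replicate 2. Nothing in the labels pairs replicates by number. With the replicate block, the ratios stayed 4.77, 3.46 and 0.718 (exact sign-flip p = 0.5, 1 and 0.5, where 2 pairs cannot go below 0.5). The planned start-site counts of genes were not run, since no annotation of hg19 was used here.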
